A study of Mus musculus with 43 samples.

Results

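The effect of enriched housing on nuclear RNA that female and male cortical neurons have in common was estimated from all 24 nuclear RNA libraries of the series, which holds 43 libraries in all. The libraries came from 2 count tables joined by gene ID, and 12 libraries from environmental enrichment (EE) were set against 12 from standard housing (SH) in 1 model with the table as a block and no interaction term. The 4 groups were female EE, female SH, male EE and male SH, with 6 libraries each. All mice were wildtype Swiss Webster, an outbred stock, were 2 months old at dissection after weaning on postnatal day 25, and no group carried a transgene or received an agent. EE cages were larger than SH cages and added a running wheel, a plastic tube, more nesting material and toys that were exchanged. Frontal cortex was fixed with paraformaldehyde, and nuclei carrying NeuN, a protein of neuronal nuclei encoded by Rbfox3, were sorted before RNA was extracted. The labels and column names give the female table and the male table different prefixes, and these data cannot tell the sex of the mice from any other difference between the tables. The labels do not say whether replicates are separate animals, and p-values measure the spread between these samples.

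Enrichment gives mice more movement, novelty and exploration, and it is known to alter dendrites, synapses and learning in rodents. Nuclear RNA holds much unspliced transcript, so reads over introns and exons follow transcription and the stay of RNA in the nucleus more closely than cytoplasmic mRNA does. Gene groups known to respond to neuronal activity include immediate early genes, secreted neuropeptides and growth factors. Adhesion and guidance receptors and enzymes of the extracellular matrix shape contacts between neurons. Neurons also take up and make cholesterol for their membranes, under the SREBP transcription factors, which enter the nucleus when sterols are low.

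Total counts were 11.5 to 15.4 mega (M) in female EE libraries, 10.6 to 13.2 M in female SH, 10.4 to 13.6 M in male EE and 11.7 to 14.6 M in male SH. Of 53379 gene IDs, 15562 passed the low-count filter, and 15052 of these were autosomal and are described here. Xist matched the labelled sex, with counts of 6340 to 9857 where the label was female and 0 to 3 where it was male. Rbfox3 ran from 1587 to 2227 counts per M reads counted (CPM). Defining markers of non-neuronal cells were low, with medians of 2.00 CPM for Mog (oligodendrocytes), 3.09 for Aqp4 (astrocytes), 2.29 for Pdgfra (oligodendrocyte precursors), 3.62 for Cx3cr1 (microglia) and 4.32 for Flt1 (vessels), and C1qa and Cldn5 did not pass the filter. Female SH replicate 2 stood apart: it held the highest level of each of these 5 markers, 6.94, 9.84, 10.5, 7.02 and 27.8 CPM in that order. The count of calls, the medians of the non-neuronal marker lists and some single genes are also given without it. The number of genes detected averaged 24461 ± 1238 (SD) in 12 EE libraries and 25329 ± 1495 in 12 SH libraries (n = 12 each; two-sided permutation test within tables, p = 0.0329, adjusted p = 0.296 over 9 library measures).

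The common housing effect was small for nearly all genes. The median size of the log2 fold change (EE over SH, positive where EE is higher) was 0.06 over the 15052 genes. At a Benjamini-Hochberg adjusted p under 0.05 in edgeR's quasi-likelihood F test, 2 genes were called, a share of 0.0133%, and both were higher in EE: Trps1, a GATA-type zinc finger repressor of transcription, and Lmo7, a LIM domain protein of cell junctions. No gene was called lower in EE by this test, a share of 0%, while DESeq2 called 6 and limma-voom 3. At an unadjusted p under 0.05 there were 1117 genes, 7.42% of those tested, with 576 (3.83%) higher and 541 (3.59%) lower in EE. The count of calls depended on single libraries. It was 19 higher and 6 lower without female SH replicate 2, 8 and 5 without male EE replicate 1, 5 and 1 without female EE replicate 1, and 4 and 1 without male EE replicate 4. It was 4 and 0 without female SH replicate 1, female SH replicate 3 or male SH replicate 5, and 1 and 0 without female EE replicate 4, female EE replicate 5, female SH replicate 4 or male SH replicate 3. With libraries scaled by their total count only, 1 gene was called higher and 3 were called lower (Maml3, Iqgap2 and Ccbe1), against 2 higher and 0 lower with the trimmed-mean scaling used here.

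**Figure D1:**
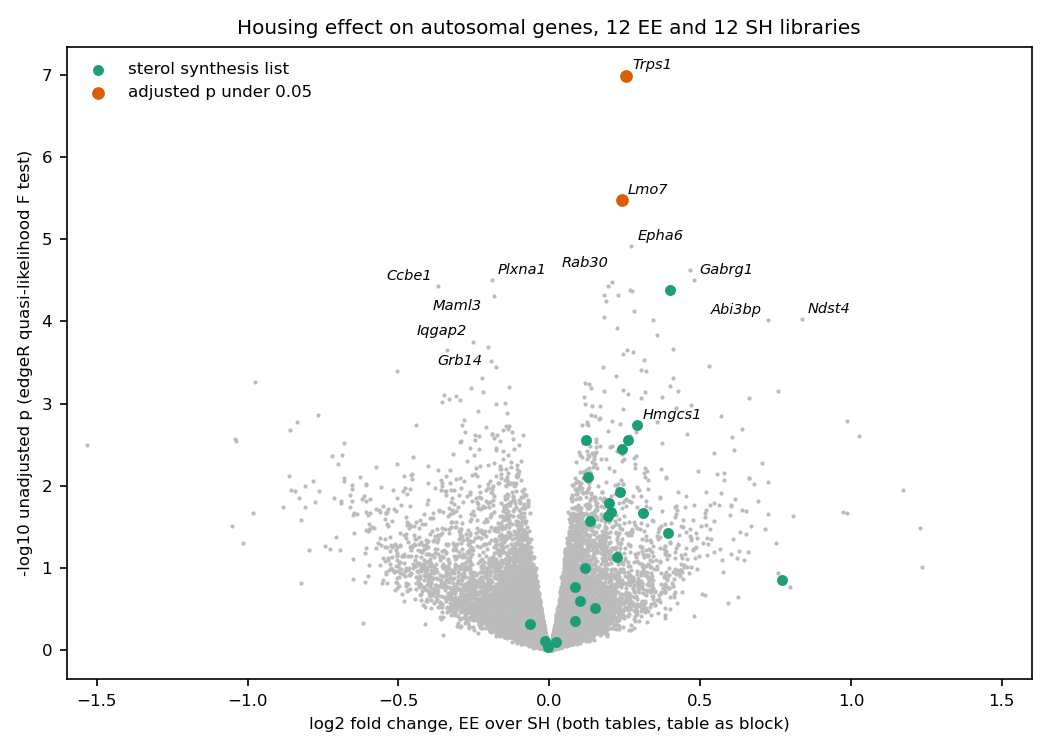
Log2 fold change (EE over SH, x axis) against the negative log10 of the unadjusted p (y axis) for 15052 autosomal genes, 1 point each, from 12 EE and 12 SH libraries. Trps1 and Lmo7 (orange) stand above the rest, and 21 of the 24 sterol genes (green) lie to the right of 0.

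Trps1 (ENSMUSG00000038679) lies on chromosome 15 from 50654752 to 50890463 on the minus strand of mm10. Its lowest, median and highest levels were 202, 236 and 249.7 CPM in female EE libraries and 178, 195 and 213 CPM in female SH libraries. In the male table they were 99.96, 108 and 117 CPM in EE and 83.7, 89.9 and 97.3 CPM in SH. All 12 EE libraries lay above the SH median of their table and 11 of 12 above every SH library, so 1 female EE library fell within the SH range and the male groups did not overlap, as for 0.492% of tested genes in that table. The log2 fold change of Trps1 was 0.25 ± 0.04 (SE; adjusted p = 0.0016), with 0.25 in the female table alone and 0.26 in the male table alone. Trps1 was called under each of the 10 other settings of scaling, filter, covariate and tool and without each of the 24 libraries, and its log2 fold change then ran from 0.24 to 0.27 over the left-out libraries. In bulk nuclei a different share of a cell type and a different amount of RNA per nucleus cannot be told apart, here or for any gene that follows.

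Lmo7 (ENSMUSG00000033060) lies on chromosome 14 from 101729957 to 101934710 on the plus strand. Its lowest, median and highest levels were 135, 148 and 169 CPM in female EE libraries and 101, 121 and 135 CPM in female SH libraries. In males they were 96.7, 104 and 111 CPM in EE and 88.3, 95.4 and 96.5 CPM in SH. All 12 EE libraries again exceeded the SH median of their table and 11 of 12 exceeded every SH library. The male groups did not overlap, as for 0.492% of tested genes in that table. The log2 fold change of Lmo7 was 0.24 ± 0.04 (SE; adjusted p = 0.026), with 0.33 in the female table alone and 0.15 in the male table alone. The call did not hold with total-count scaling (adjusted p = 0.0625), with a block for the replicate number (0.111), nor without female EE replicate 4 (0.0587), female EE replicate 5 (0.0608), female SH replicate 4 (0.0788) or male SH replicate 3 (0.0657).

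**Figure D2:**
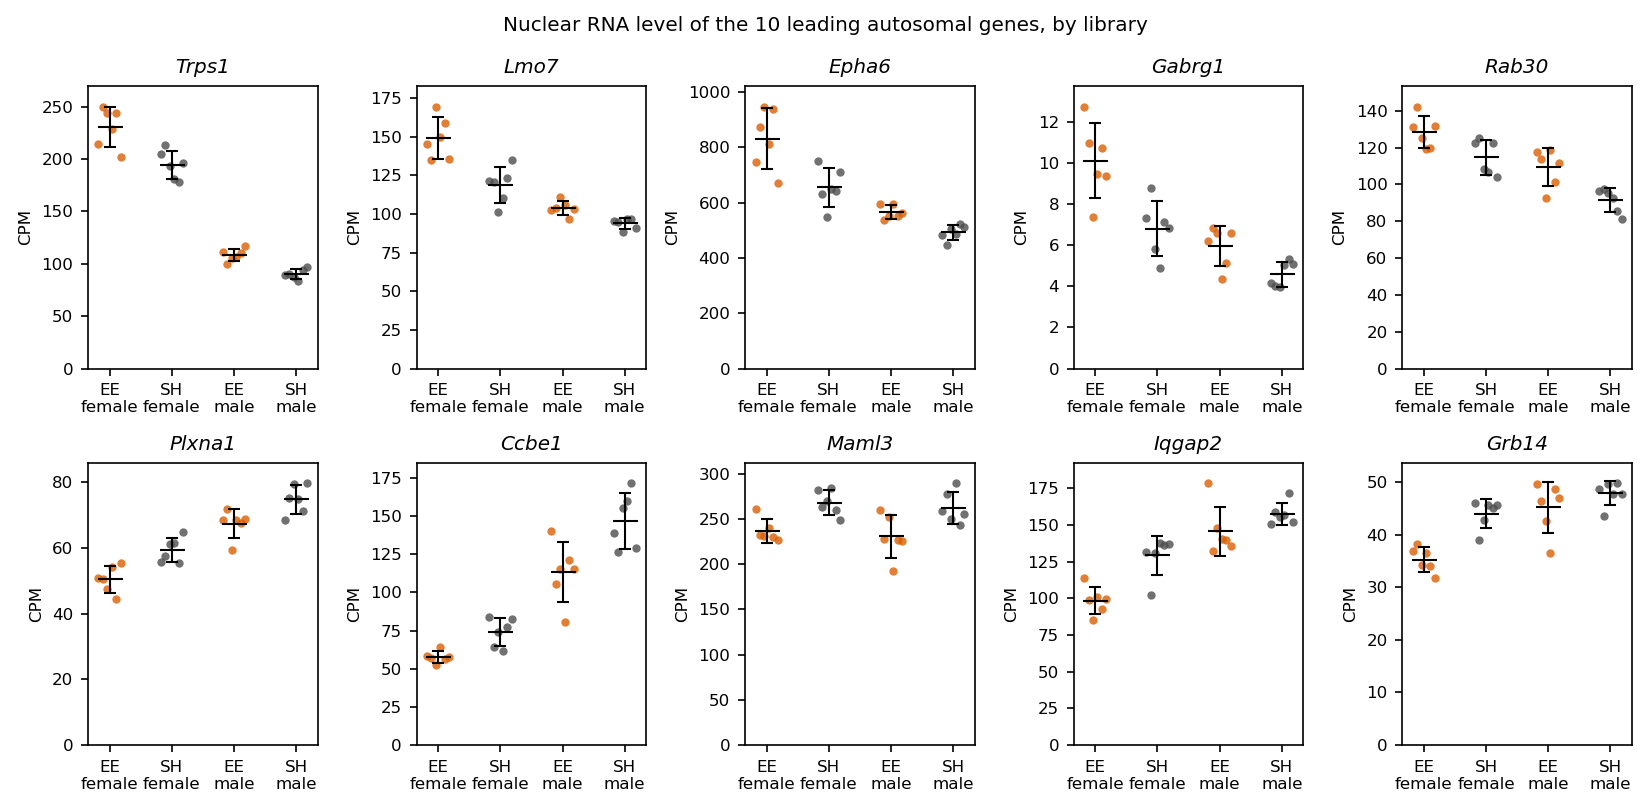
Nuclear RNA level (CPM, linear axis from 0) of 10 autosomal genes, the 5 higher in EE (top row) and the 5 lower in EE (bottom row) with the smallest p in their direction once Gm and Rik symbols are left out, with EE (orange) left of SH (grey) for females and then males. Points are the 6 libraries of a group and bars the mean ± SD; of these genes, Trps1 and Lmo7 were called.

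The next genes fell just outside the threshold. A further 13 genes shared an adjusted p of 0.0504, of which 10 were higher and 3 lower in EE, and 23 genes in all (0.153% of those tested) had an adjusted p under 0.1, with 20 higher and 3 lower. The size of the log2 fold change among these 23 ran from 0.18 to 0.84, with a median of 0.27. All 23 had the same sign in each table alone, a description only, since the test had picked them from the same libraries. The same holds for the counts of EE libraries past SH libraries that are given for single genes picked by their p. Apart from those in the rule for named genes, the genes described from this set were chosen after their values were seen. None but Trps1 and Lmo7 passed the test, and the values that follow are levels and differences, not calls.

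Receptors and ligands of axon guidance and adhesion made up part of this set. Epha6, an Eph receptor tyrosine kinase for ephrin-A ligands (chromosome 16, 59653483 to 60605531, minus strand), ranged from 669 to 946 CPM with a median of 842 in female EE libraries, against 547 to 752 with a median of 646 in female SH. In males it ranged from 535 to 596 CPM with a median of 558 in EE, against 447 to 521 with a median of 496 in SH. Every EE library exceeded the SH median of its table, and 10 of 12 exceeded every SH library, for a log2 fold change of 0.27 ± 0.05 (SE). Slit2, a secreted ligand of Robo receptors, had medians of 337 CPM in female EE and 252 in female SH, and 278 in male EE and 246 in male SH (0.27 ± 0.05). Plxna1, a plexin that receives semaphorin signals (chromosome 6, 89316314 to 89362620, minus strand), had the opposite sign, with medians of 50.7 CPM in female EE and 59.5 in female SH, and 68.6 in male EE and 75.1 in male SH (-0.19 ± 0.04). All 12 EE libraries were below the SH median of their table for Plxna1, and 8 of 12 were below every SH library. Cntnap5a, an adhesion protein of the neurexin superfamily, had a log2 fold change of 0.18 ± 0.04, with 11 of 12 EE libraries above the SH median. Over the 82 tested genes of the guidance and adhesion list, 53 had a positive and 29 a negative log2 fold change and the median was 0.04. None of the 82 was called in the edgeR fit used here, but under the 10 other settings Plxna1 was called in 7, Epha6 in 5, Slit2 in 4, Ntng1 in 2 and Tenm3 in 1. Of the 82, 12 were higher and 7 lower at an unadjusted p under 0.05, or 23.2% of the list beside 7.42% of all genes. Members of this and every other list were chosen with earlier results of these data known, which can raise such shares. No list's share was compared with that of genes of like length or level.

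Secreted and matrix proteins formed another portion. Col11a1, a fibrillar collagen chain, had medians of 36.7 CPM in female EE and 30.7 in female SH, and 9.32 in male EE and 8.19 in male SH, for a log2 fold change of 0.27 ± 0.06. All 12 EE libraries exceeded the SH median of their table. Abi3bp, an extracellular matrix protein, had a log2 fold change of 0.72 ± 0.15, which the female table carried: it was 1.09 there, with 117 to 194 CPM in EE and 51.2 to 96.2 CPM in SH, and 0.25 in the male table, with 26.4 to 44.5 CPM in EE and 17 to 32.9 CPM in SH. Ndst4, an enzyme that modifies heparan sulfate chains, showed the largest size of change among the 23, 0.84 ± 0.17, and again it was 1.12 in the female table and 0.10 in the male table. Female EE and SH libraries did not overlap for Abi3bp and Ndst4, as for 0.498% of tested genes in that table, whereas the male ranges did overlap. Tll1, a metalloprotease of the tolloid family, had 0.34 ± 0.08. Ccbe1, a secreted protein that aids the processing of the growth factor VEGF-C (chromosome 18, 66045302 to 66302739, minus strand), was lower in EE, with medians of 57.3 CPM in female EE and 75.6 in female SH, and 115 in male EE and 147 in male SH (-0.37 ± 0.07). All 12 EE libraries lay below the SH median for Ccbe1, and 10 of 12 below every SH library. Of 38 tested genes of the extracellular matrix and perineuronal net list, 23 were positive and 15 negative with a median of 0.04. None was called in the edgeR fit used here, but Col11a1 was called in 6 and Abi3bp in 2 of the 10 other settings. At an unadjusted p under 0.05, 6 were higher and 3 lower (23.7% of the list beside 7.42% of all genes). Tnr, the tenascin of perineuronal nets, was among the lower ones at -0.10 ± 0.04. This list, too, was chosen with earlier results of these data known.

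**Figure D3:**
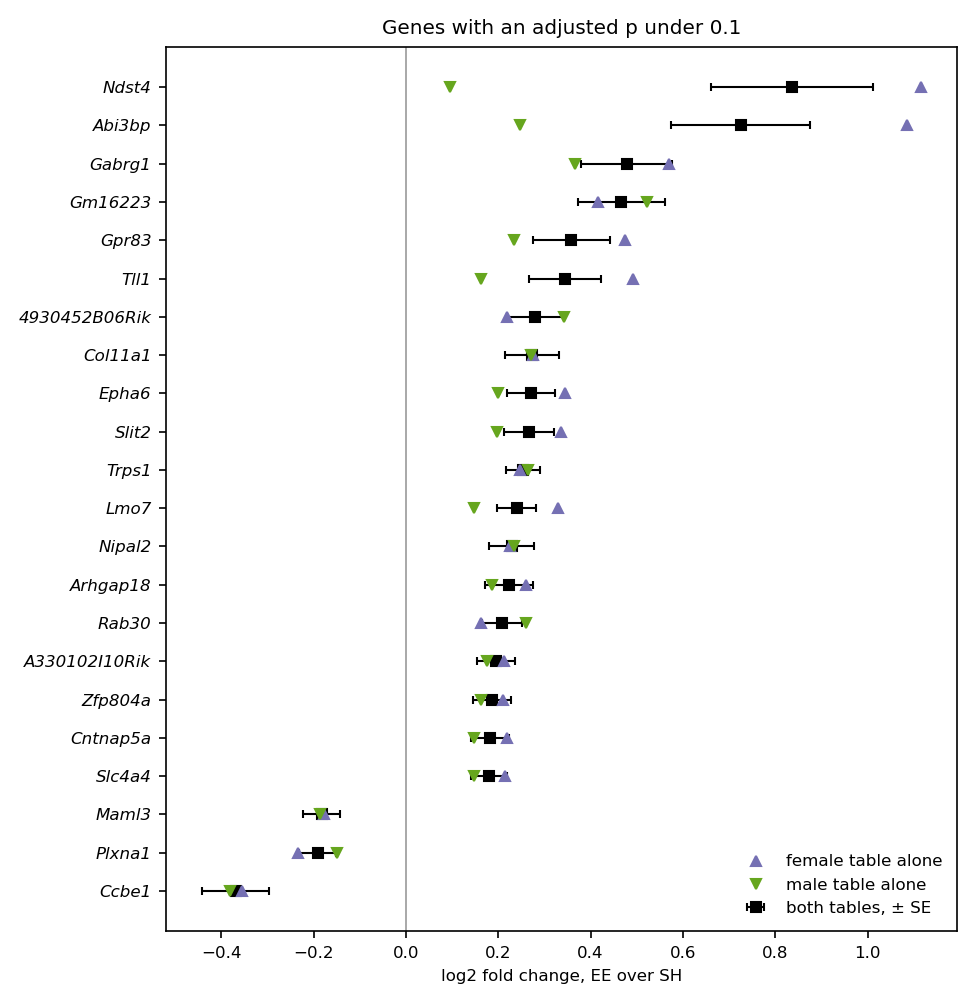
Log2 fold change (EE over SH, x axis) of 22 of the 23 autosomal genes with an adjusted p under 0.1, with the estimate from both tables and its SE (black squares) and the estimates from the female (upward triangles) and male (downward triangles) table alone. The 2 tables lie close together for Trps1 and Col11a1 and far apart for Ndst4 and Abi3bp.

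Receptors, transporters and signalling proteins completed the set. Gabrg1, the gamma 1 subunit of the GABA-A receptor (chromosome 5, 70751047 to 70842617, minus strand), had medians of 10.1 CPM in female EE and 7.00 in female SH, and 6.40 in male EE and 4.60 in male SH, for a log2 fold change of 0.48 ± 0.10. It exceeded the SH median in 11 of 12 EE libraries, and no other of the 11 tested GABA-A subunits had an unadjusted p under 0.05. Gpr83, a G protein-coupled receptor, had 0.36 ± 0.08. Slc4a4, a sodium bicarbonate cotransporter that astrocytes also express, had 0.18 ± 0.04, with all 12 EE libraries above the SH median. Rab30, a small GTPase of the Golgi (chromosome 7, 92741603 to 92844535, plus strand), had medians of 128 CPM in female EE and 115 in female SH, and 113 in male EE and 94.2 in male SH (0.21 ± 0.04). Arhgap18, which switches off small GTPases, had 0.22 ± 0.05, and Zfp804a, a zinc finger protein, 0.19 ± 0.04. Maml3, a coactivator of Notch (chromosome 3, 51685907 to 52105076, minus strand), was lower, with medians of 232 CPM in female EE and 267 in female SH, and 228 in male EE and 258 in male SH (-0.18 ± 0.04). Iqgap2, a scaffold that binds actin and small GTPases, and Grb14, an adaptor that restrains the insulin receptor, were the next lower genes under the naming rule, at -0.25 ± 0.06 and -0.20 ± 0.05 with adjusted p-values of 0.114 and 0.125. Their differences were larger in the female table (-0.39 and -0.32) than in the male table (-0.11 and -0.09), which was not tested. Without female SH replicate 2, the log2 fold change of Iqgap2 was -0.27 with an edgeR adjusted p of 0.0372, and without male EE replicate 1 it was -0.29 with 0.011. The set also held Nipal2, of a family of magnesium transporters, and 3 transcripts known here only by the symbols Gm16223, A330102I10Rik and 4930452B06Rik.

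The genes near the threshold were long. The median genomic span of the 23 was 205 kb, and 18 of 23 (78.3%) reached 100 kb, beside a median of 28.7 kb and 17.2% over all tested genes. Their median average log2 CPM was 6.2, beside 3.33, so the longer genes also had more reads behind them. Among the 570 genes that span over 300 kb, 12.1% were higher and 5.96% lower at an unadjusted p under 0.05, against 3.04% higher and 2.38% lower among the 756 genes under 3 kb. The pooled median log2 fold change was -0.02 in genes under 3 kb and 0.01 in genes over 300 kb, but the tables ran in opposite directions: these medians were 0.05 and -0.03 in the female table and -0.04 and 0.04 in the male table. Counts summed over introns and exons grow with gene length, and the part of read depth in which genes were called was not tested.

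Genes of the sterol pathway were mostly higher in EE, by small amounts. Of 24 tested genes for cholesterol synthesis, uptake and their control, 21 had a positive and 3 a negative log2 fold change, with a median of 0.17 beside -0.0025 over all genes. None was called in the edgeR fit used here, and DESeq2 and limma-voom called 1 each. In edgeR, 1 was called with DESeq2's size factors, with no low-count filter, with a non-neuronal marker covariate and with 1 surrogate variable. Leaving out female EE replicate 1 or female SH replicate 2 also gave 1 call. At an unadjusted p under 0.05, 13 were higher and 0 lower, or 54.2% of the list beside 7.42% of all genes. The median was 0.15 in the female table alone and 0.18 in the male table alone, and 19 of 24 members had the same sign in both. Across the other settings and left-out libraries, 11 to 15 members were higher and 0 lower at that threshold, and the median ran from 0.14 to 0.21. The list was chosen with earlier results of these data known.

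The promoters of the 4 sterol genes with the smallest p that the RefSeq table holds are printed because these genes share a direction and a pathway. Each runs 5′ to 3′ on the strand of the gene, from 250 bases before the start to 50 after it, in RefSeq GRCm38.p6. Capitals mark the CCAAT box (CCAAT, or ATTGG for the other strand) and, in Hmgcs1, the short sterol element TCACNCCAC. The windows are chr13:119690101-119690400 on the plus strand for Hmgcs1, chr15:82147019-82147318 on the plus strand for Srebf2, chr8:64733529-64733828 on the minus strand for Msmo1 and chr5:4104648-4104947 on the minus strand for Cyp51.
Hmgcs1: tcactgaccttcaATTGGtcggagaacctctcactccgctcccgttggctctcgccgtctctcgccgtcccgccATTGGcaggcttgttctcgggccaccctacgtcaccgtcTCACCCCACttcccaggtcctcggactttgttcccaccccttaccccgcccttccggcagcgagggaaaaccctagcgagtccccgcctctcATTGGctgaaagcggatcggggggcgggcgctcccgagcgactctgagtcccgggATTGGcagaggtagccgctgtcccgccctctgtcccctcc
Srebf2: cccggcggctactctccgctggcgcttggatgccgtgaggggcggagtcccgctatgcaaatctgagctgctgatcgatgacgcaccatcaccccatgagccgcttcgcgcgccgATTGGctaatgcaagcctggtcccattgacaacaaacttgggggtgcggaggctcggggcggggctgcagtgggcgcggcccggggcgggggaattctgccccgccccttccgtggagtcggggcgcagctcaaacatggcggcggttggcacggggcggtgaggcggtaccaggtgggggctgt
Msmo1: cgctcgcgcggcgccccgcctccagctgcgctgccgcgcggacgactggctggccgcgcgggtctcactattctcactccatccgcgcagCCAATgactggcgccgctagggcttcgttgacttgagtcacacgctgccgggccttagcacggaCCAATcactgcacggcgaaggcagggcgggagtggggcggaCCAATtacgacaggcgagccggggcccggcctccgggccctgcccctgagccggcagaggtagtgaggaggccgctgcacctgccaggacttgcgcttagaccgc
Cyp51: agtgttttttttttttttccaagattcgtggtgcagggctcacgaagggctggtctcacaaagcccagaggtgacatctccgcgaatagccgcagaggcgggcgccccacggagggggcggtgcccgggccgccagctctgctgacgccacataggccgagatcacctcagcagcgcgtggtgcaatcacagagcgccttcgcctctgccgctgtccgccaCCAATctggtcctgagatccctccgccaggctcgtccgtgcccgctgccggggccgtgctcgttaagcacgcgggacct

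Matches in these windows are letters only, and no binding was measured. Of the 24 sterol genes, 17 had promoters in the RefSeq table, with 25 starts. The CCAAT box, the letters CCAAT on either strand, stood in 17 of the 25 promoters (68.0%) beside 36.9% of 14094 promoters of tested autosomal genes. The short sterol element TCACNCCAC stood in 1 of 25 (4.0%) beside 1.17%, and the E-box CACGTG in 6 of 25 (24%) beside 9.30%. The AP-1 letters TGANTCA stood in 8.0% beside 5.05%, and the cyclic AMP element TGACGTCA in none beside 2.90%. The same motifs in the 13 promoters found for 11 of the 23 genes near the threshold gave 46.2% for the CCAAT box and 7.69% for AP-1, and none for the others.

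At the head of the synthesis pathway, Hmgcs1 makes HMG-CoA, the precursor of mevalonate. Hmgcs1 had medians of 21.4 CPM in female EE and 18.7 in female SH, and 23.6 in male EE and 18.2 in male SH, for a log2 fold change of 0.29 ± 0.08 with 11 of 12 EE libraries above the SH median. The next steps carry mevalonate to isoprenoids, with log2 fold changes of 0.19 ± 0.08 for Mvk, 0.10 ± 0.09 for Pmvk, 0.31 ± 0.13 for Mvd and 0.39 ± 0.18 for Idi1. Fdft1 and Sqle, which make and oxidize squalene, had 0.13 ± 0.06 and 0.23 ± 0.09. All 7 of these enzymes were positive, and Pmvk alone among them had an unadjusted p above 0.05.

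Of the later enzymes, which turn lanosterol into cholesterol, Cyp51 (0.24 ± 0.08) and Msmo1 (0.26 ± 0.08) remove methyl groups, and Dhcr7 (0.20 ± 0.08) reduces a double bond. Msmo1 exceeded the SH median in 12 of 12 EE libraries, with medians of 14.3 CPM in female EE and 11.8 in female SH, and 19.6 in male EE and 15.0 in male SH. Tm7sf2, Hsd17b7 and Sc5d, of the same steps, had 0.02, 0.09 and 0.12 with unadjusted p-values of 0.802, 0.444 and 0.0998. Lss, which makes lanosterol, had 0.08 with an unadjusted p of 0.17. Among the regulators, Srebf2, the SREBP of the cholesterol genes, also exceeded the SH median in 12 of 12 EE libraries, with medians of 93.8 CPM in female EE and 85.8 in female SH, and 93.0 in male EE and 83.0 in male SH (0.12 ± 0.04). Srebf1, the SREBP of fatty acid genes, had -0.06 ± 0.09, and Scap, which escorts both proteins, had -0.0036 ± 0.0362. Insig1 and Insig2, which hold Scap in the endoplasmic reticulum, had 0.22 ± 0.12 and -0.02 ± 0.05.

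**Figure D4:**
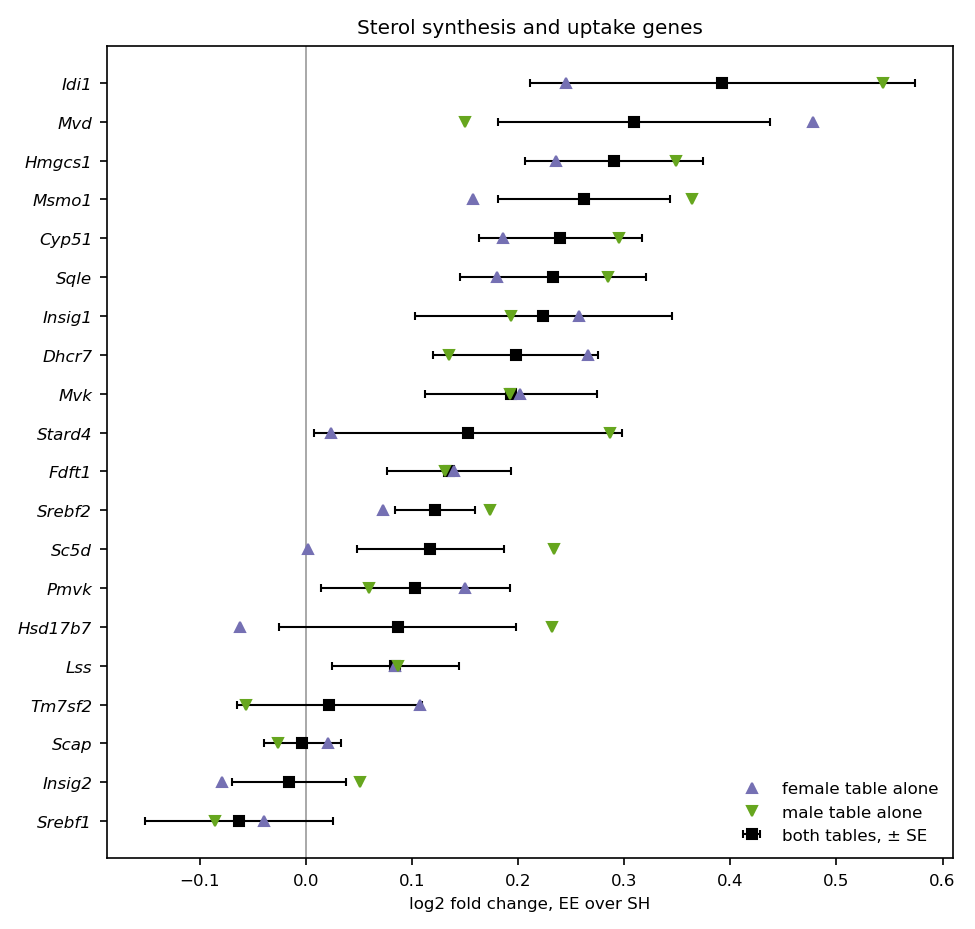
Log2 fold change (EE over SH, x axis) of 20 of the 24 tested sterol genes, with the estimate from both tables and its SE (black squares) and each table alone (triangles). Of the 20 drawn, 17 lie right of 0.

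Genes driven by neuronal activity were positive on balance, but not in both tables. Of 20 tested immediate early genes, 19 had a positive log2 fold change and the median was 0.27, but the median was 0.64 in the female table alone and -0.08 in the male table alone, with 8 of 20 of the same sign in both. The pooled median ran from 0.15 without male EE replicate 4 to 0.40 without male SH replicate 4. None was called in the edgeR fit used here or under any of the 10 other settings, and none had an unadjusted p under 0.05. Egr1, a zinc finger transcription factor induced by activity, had medians of 29.9 CPM in female EE and 18.7 in female SH, and 34.5 in male EE and 30.0 in male SH (0.48 ± 0.24; 0.91 and 0.08 in the tables alone). Fos had 0.50 ± 0.39 and Arc, a regulator of synaptic receptor uptake, 0.38 ± 0.26. Of 36 delayed activity-regulated genes, 24 were positive, with a median of 0.06. At an unadjusted p under 0.05, 1 was higher and 1 lower (5.56% of the list beside 7.42% of all genes). Vgf, a secreted neuropeptide precursor, had 0.16 ± 0.08, and Sorcs3, a sorting receptor, -0.14 ± 0.06. Both were larger in size in the female table alone (0.29 and -0.25) than in the male table alone (0.05 and -0.02), which was not tested.

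**Figure D5:**
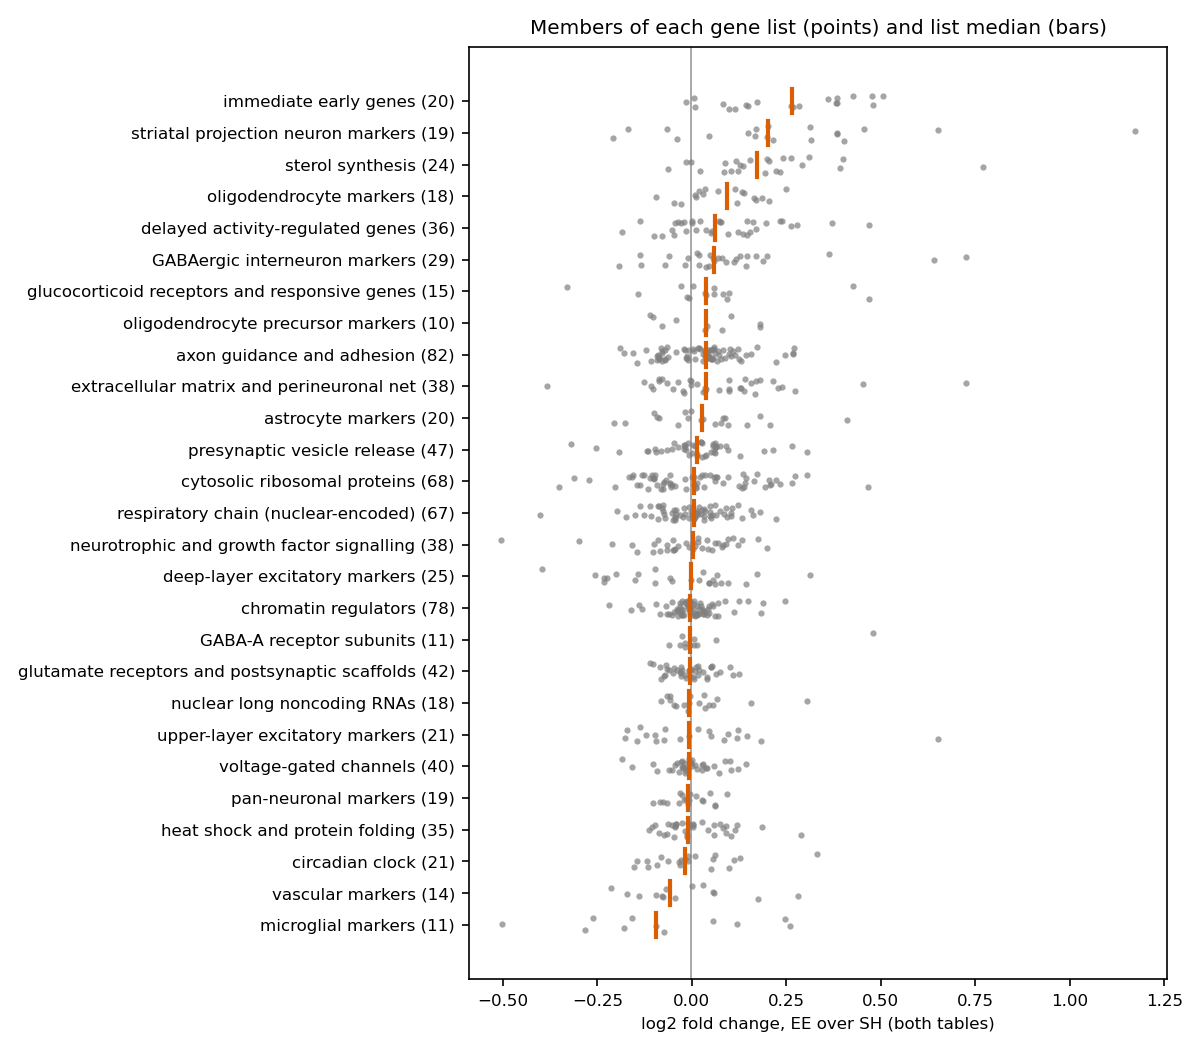
Log2 fold change (EE over SH, x axis) of the tested members of 27 gene lists (grey points, vertical jitter for display) with each list's median (orange bars) and number of tested members in parentheses; the grey line is the median of all autosomal genes. Immediate early genes, striatal markers and sterol genes have the highest medians, 0.27, 0.20 and 0.17.

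Synaptic and channel genes had medians near 0. Of 42 genes of glutamate receptors and postsynaptic scaffolds, 2 were higher and 3 lower at an unadjusted p under 0.05 (11.9% of the list beside 7.42% of all genes), with Gria4, an AMPA receptor subunit, at 0.11 ± 0.04 and Camk2a, the alpha subunit of the synaptic kinase CaMKII, at -0.09 ± 0.03. Of 47 genes of presynaptic release, 2 were higher and 2 lower (8.51%), with Rims3, of the active zone, at -0.19 ± 0.05 and Syn3, a synapsin, at 0.13 ± 0.04. Of 40 voltage-gated channels, 4 were higher and 2 lower (15%), with Scn1a, a sodium channel prominent in fast-spiking interneurons, at 0.14 ± 0.04 and Kcnn2, a small-conductance potassium channel that calcium opens, at -0.16 ± 0.06. Gria4 had 0.01 in the female table alone and 0.21 in the male table alone, and Camk2a had -0.14 and -0.03. The median log2 fold changes of the 3 lists were -0.01, 0.01 and -0.01. No member of the 3 lists was called in the edgeR fit used here, and Scn1a was called in 1 of the 10 other settings.

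Genes that mark neuron classes, among them neuropeptide and transcription factor genes, had values of both signs. Of 29 tested markers of GABAergic interneurons, 22 were positive with a median of 0.06, and 5 were higher and 0 lower at an unadjusted p under 0.05 (17.2% of the list beside 7.42% of all genes), among them the neuropeptide genes Tac2 (0.64 ± 0.19), Crh (0.73 ± 0.26) and Sst (0.19 ± 0.09) and the transcription factor Dlx1 (0.36 ± 0.16). Each of these 4 was positive in both tables alone. Tac2, Crh and Dlx1 had low average log2 CPM of 0.44, -0.30 and 0.98, under the level of 1 set for named genes. Gad1 and Gad2, at 5.05 and 5.14, had log2 fold changes of 0.14 ± 0.10 and 0.11 ± 0.11 and did not reach that threshold. Of 19 markers of striatal projection neurons, 5 were higher and 1 lower at that threshold (31.6%), with a median of 0.20 that was 0.35 in the female table and -0.06 in the male table. The pooled striatal median was 0.13 without female EE replicate 3. Of the 19, 8 had the same sign in both tables. The opioid precursor Penk had 0.40 ± 0.17 and the olfactory and striatal G protein Gnal 0.15 ± 0.06. Both were positive in each table, as was Rgs9, while Isl1 and Tac1 were positive in the female and negative in the male table. The lower marker was Pde10a, at -0.17 ± 0.08 and negative in each table. Summed over the striatal list, levels were 1741 to 3483 CPM in EE and 2083 to 3314 CPM in SH, and their part in the results was not tested. Pde10a, Foxp1 and Meis2 had the highest average log2 CPM of the list, at 10.3, 8.67 and 8.26. The sum thus follows them far more than members such as Penk, at 3.50. Of 21 upper-layer and 25 deep-layer markers of excitatory neurons, 3 were higher and 3 lower (28.6%), and 1 higher and 4 lower (20%), with Lmo4 at -0.12 ± 0.05, Ldb2 at -0.23 ± 0.07 (-0.26 for the log2 fold change of Ldb2 without female SH replicate 2) and the kappa opioid receptor Oprk1 at 0.31 ± 0.11. Also lower at that threshold were the upper-layer markers Lhx2 (-0.15 ± 0.06) and Cux2 (-0.10 ± 0.04). The higher upper-layer markers were Cntnap5a (0.18 ± 0.04), Epha3 (0.12 ± 0.06) and Cartpt (0.65 ± 0.27), and Cartpt was negative in the male table alone. Of the upper-layer list, 10 members were positive and 11 negative. The deep-layer markers Crym (-0.20 ± 0.08), Tbr1 (-0.15 ± 0.07) and Fezf2 (-0.23 ± 0.11) were lower as well. Of 19 pan-neuronal markers, 7 were positive and 12 negative with a median of -0.01.

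The pooled medians of the 5 non-neuronal marker lists were highest when female SH replicate 2 was left out. Of 20 astrocyte markers 11 were positive, with a median of -0.18 in the female and 0.20 in the male table, and summed levels were 972 to 1381 CPM in EE and 890.0 to 1783 CPM in SH. Of 18 oligodendrocyte markers 15 were positive, with a median of -0.08 in females and 0.35 in males and sums of 292 to 414 CPM in EE and 281 to 569 CPM in SH. Both SH maxima, 1783 and 569 CPM, were female SH replicate 2. Precursor markers were positive in 6 of 10, microglial markers in 4 of 11 and vascular markers in 6 of 14. The pooled medians were 0.03 for astrocytes, 0.09 for oligodendrocytes, 0.04 for precursors, -0.09 for microglia and -0.06 for vessels. Without female SH replicate 2 they were 0.27, 0.35, 0.24, 0.13 and 0.19 in the same order, and the part of these markers in other results was not tested beyond the covariate below. Leaving out other single libraries also moved each of these small medians by more than 1.5 times. At an unadjusted p under 0.05, none of the oligodendrocyte, microglial and vascular markers differed, and the astrocyte list held Slc4a4 and the BMP receptor Bmpr1b (0.41 ± 0.10). Without female SH replicate 2, the log2 fold change of Bmpr1b was 0.46 with an edgeR adjusted p of 0.0363. With the level of non-neuronal markers as a covariate the calls were 18 higher and 4 lower, and Trps1 and Lmo7 were among them. Without female SH replicate 2 and with that covariate, an alternative chosen after seeing the data, 6 genes were called higher and 0 lower, with log2 fold changes of 0.25 for Trps1 and 0.23 for Lmo7.

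The remaining lists held scattered changes. Among 21 clock genes, 1 was higher and 3 lower at an unadjusted p under 0.05 (19.0% of the list beside 7.42% of all genes). Arntl, the core activator BMAL1, had 0.13 ± 0.04. Hlf, Tef and Dbp, 3 related output factors, were the ones lower at an unadjusted p under 0.05, at -0.14, -0.09 and -0.15. Fitted alone, the female and male tables gave 0.03 and 0.23 for Arntl and -0.20 and -0.09 for Hlf. They gave -0.04 and -0.15 for Tef and 0.0035 and -0.33 for Dbp. Among 38 genes of neurotrophic and growth factor signalling, 20 were positive and 18 negative with a median of 0.0034. At an unadjusted p under 0.05, 1 was higher and 4 lower (13.2% of the list). Mapk3, the kinase ERK1, had -0.50 ± 0.13 and the neurotrophin Ntf3 -0.30 ± 0.11. Ntrk3, the receptor of neurotrophin-3, and Igf1r had -0.08 and -0.09. Mapk3 was below the SH median in 11 of 12 EE libraries, at medians of 3.40 CPM in female EE and 3.98 in female SH, and 2.76 in male EE and 4.69 in male SH. Of 78 chromatin regulators, 6 were higher and 5 lower at an unadjusted p under 0.05 (14.1% of the list). The remodeller Smarca2 had -0.13 ± 0.04, with -0.21 in the female and -0.05 in the male table. The histone deacetylase Hdac5 had 0.15 ± 0.05, with 0.28 in the female and 0.02 in the male table. Of 15 glucocorticoid genes, 2 were higher and 0 lower (13.3%). They were the kinase Sgk1 (0.09 ± 0.04) and the cell cycle inhibitor Cdkn1a (0.47 ± 0.23). Heat shock genes (1 higher and 1 lower of 35), respiratory chain genes (0 and 1 of 67), cytosolic ribosomal protein genes (1 and 1 of 68) and nuclear long noncoding RNAs (0 and 0 of 18) had shares under 7.42%. No member of these lists was called in the edgeR fit used here, and Arntl and Mapk3 were each called in 1 of the 10 other settings.

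Open chromatin offered another readout of the same housing contrast in other libraries: 3 EE and 3 SH female and 6 EE and 7 SH male ATAC-seq libraries, in which a transposase marks accessible DNA. Each table was fitted alone, with 78 of 164926 female regions (0.0473%) and 0 of 192834 male regions (0%) called in edgeR, where 8.01% of female and 4.54% of male regions had an unadjusted p under 0.05. The promoter region of Trps1 had a log2 fold change of 0.20 ± 0.20 (SE) in females and -0.07 ± 0.09 in males, and that of Lmo7 0.19 ± 0.19 and 0.05 ± 0.09, with edgeR adjusted p-values of 0.868, 1.0, 0.859 and 1.0. None of the promoter regions of the 10 leading genes was called, and no region within 1 kb of the start of Ccbe1 or Grb14 was analysed here. For the 24 sterol genes, 3 of 21 female promoter regions and 6 of 22 male ones had a positive log2 fold change, 14.3% and 27.3%, beside 28.5% and 28.7% of all promoter regions. Their medians were -0.09 in females and -0.04 in males, beside -0.06 and -0.03 for all, and none of them was called. For the 23 genes near the threshold, 14 of 21 female regions and 11 of 21 male regions were positive. At an unadjusted p under 0.05, 0 of the 21 female and 1 of the 21 male regions differed, and none of the sterol genes' regions, beside 4.26% of female and 2.19% of male promoter regions.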

How the data were processed

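Nuclear RNA was measured in 24 libraries of sorted frontal cortical nuclei. The deposited RNA tables give whole, unnormalized read counts for each Ensembl gene, taken over introns and exons, per the labels and the file headers. Per the submitters' processing notes, STAR 2.5.4, SAMtools 1.3.1, bedtools, MACS2 2.1.1, DiffBind 3.2.2, edgeR and DESeq2 1.16.1 were applied on build mm10. No source used here gives the read counter or its use of strand, so overlapping and antisense genes cannot be told apart. The deposited ATAC tables give raw read counts in regions set per table.

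The RNA tables were joined by gene ID, and 53274 of 53379 IDs matched a symbol. The header of the male table has 1 name fewer than it has columns, which were read by their position. Counts were fitted in edgeR 4.0.16 under R 4.3.3 with table and housing as terms, scaling by trimmed mean (TMM), edgeR's default filter on low counts over the 4 groups and the robust quasi-likelihood F test. P-values were adjusted by Benjamini-Hochberg over all 15562 tested genes, and a gene was called at an adjusted p under 0.05. SEs of log2 fold changes are |log2 fold change| over the root of F. CPM use the scaled library sizes. The fit was tested on simulated data. Each table alone was fitted in the same way, and ATAC regions were fitted per table, with the region nearest to a gene start within 1 kb taken as its promoter region. ATAC totals were 23.6 to 26.3 M in female EE, 19.1 to 23.8 M in female SH, 38.0 to 68.1 M in male EE and 27.7 to 73.8 M in male SH.

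Named genes are the 5 autosomal genes with the smallest p in each direction, with an average log2 CPM of at least 1 and without Gm or Rik symbols, together with the 1 or 2 members of smallest p in each of 27 lists. The members and lists were chosen with earlier results of these data known. Library measures were compared with 100000 permutations within tables. Alternatives used limma 3.58.1, DESeq2 1.42.0 and sva 3.50.0, other scalings, filters and thresholds, covariates, a replicate block and each library left out. A few genes of the lists are not reported here by name. Gene coordinates are those of the deposited female table.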

Additional observations from a re-analysis of the deposited data

Results flagged for a closer look

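Among 352 groups of 6 libraries looked at for 86 genes, total count and genes detected, single libraries stood far from the other 5 in 17, where chance gives about 1 in 20 groups. Female SH replicate 2 was set apart for Iqgap2 (102.6 CPM, the others 130.9 to 138.1), Ldb2 (254.9, the others 357.6 to 396.7) and Bmpr1b (35.71, the others 23.34 to 26.77). Male EE replicate 1 was set apart for Iqgap2 (178.4 CPM, the others 132.3 to 147.8) and Pvt1 (123.2, the others 106.7 to 110.3). Female EE replicate 1 was set apart for Sorcs3 (404.4 CPM, the others 321.1 to 348.3) and Pmvk (4.597, the others 7.425 to 8.741). Male SH replicate 4 was set apart for Ntf3 (9.866 CPM, the others 5.833 to 7.077) and Hmgcs1 (26.88, the others 16.26 to 19.05).

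The other male libraries set apart were EE replicate 3 for Plxna1 (59.28 CPM, the others 67.56 to 71.9), EE replicate 5 for Egr1 (11.34, the others 31.24 to 42.54), EE replicate 2 for Sgk1 (100.9, the others 104.3 to 106.3) and EE replicate 6 for Abi3bp (44.47, the others 26.43 to 30.69). Male SH replicate 2 was set apart for Grb14 (43.66 CPM, the others 47.8 to 49.8) and male SH replicate 6 for Ldb2 (483.7, the others 569.6 to 604.7). Female SH replicate 3 was set apart for Slit2 (305.4 CPM, the others 236.7 to 260.1) and for its total count (10.63 M, the others 12.23 to 13.19 M).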

How the results depend on the processing

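The count of calls, 2 higher and 0 lower in EE, depended on most settings tried. It was 13 and 3 with DESeq2's size factors in edgeR, 1 and 3 with total-count scaling, 20 and 3 with no low-count filter, 18 and 4 with the non-neuronal marker covariate, 17 and 7 with 1 surrogate variable, 29 and 6 with DESeq2 (which gave 3208 genes no adjusted p) and 18 and 3 with limma-voom. It was 1 and 0 at an adjusted p under 0.01 and, chosen after seeing the data, 20 and 3 at an adjusted p under 0.1 and 6 and 0 without female SH replicate 2 but with the covariate. It stayed at 2 and 0 with a filter of 1 CPM in 12 libraries and with autosomal genes alone. Without each library in turn, it ran from 1 to 19 higher and from 0 to 6 lower. The cause was not tested. None of these scalings moved the median log2 fold change of all genes by 0.1.

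Replicate numbers are not said to mark shared animals, litters or days. Correlations of same-numbered deviations were positive in 11 of 12 pairs, above 0.1 in 5, and exceeded the best other pairing in 5. They ran from 0.02 to 0.27 in the female table and from -0.02 to 0.22 in the male table. Same-numbered replicates have the same number in their EE and SH column names in the female table, but mostly not in the male table. The main fit has no term for pairs, and whether same-numbered libraries share an origin was not tested. With the replicate block, 10 genes were called higher and 1 lower, Trps1 among them, and Lmo7 had an adjusted p of 0.111.

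Of the values of named genes under other settings, 567 kept their direction and side of the threshold, 80 newly passed it and 2 (Lmo7) no longer did. None reversed. Labels that name no animals, 1 table per sex and 6 libraries per group limit what the tests can show.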
